A study of Homo sapiens with 4 samples.

Results

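Cadherins, catenins and EPCAM, genes of the machinery by which epithelial cells hold on to each other, were followed in LoVo cells with and without the receptor MET. The genes were listed by name, with earlier results of these data known, and are 9 of the 58825 in the count tables: the cadherins CDH1, CDH2, CDH3, CDH11 and CDH17, the catenins CTNNA1, CTNNB1 and CTNND1, and EPCAM. LoVo is a human colon adenocarcinoma cell line whose MET receptor stays uncleaved and active without its ligand. Expression was measured in 4 libraries, 2 of MET+ cells, which the labels call a GFP control of WT genotype, and 2 of MET-KO cells. MET-KO cells had received a Cas9 plasmid, a GFP plasmid as transfection control and a guide RNA against MET. They were kept under puromycin, were picked as single clones and were chosen by the absence of MET protein on a blot. Whether both MET-KO libraries came from 1 clone is not given in the sources used here. Both groups were kept in DMEM with fetal bovine serum, and no further treatment is given for either.

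Classical cadherins are calcium-dependent receptors that bind the same molecule on a neighbouring cell. Inside the cell their tail binds β-catenin (CTNNB1) and p120-catenin (CTNND1), and β-catenin in turn binds α-catenin (CTNNA1), which links the complex to actin. E-cadherin (CDH1) is the main classical cadherin of the gut epithelium, P-cadherin (CDH3) is another epithelial one, and N-cadherin (CDH2) and CDH11 are typical of neural and mesenchymal cells. CDH17, the liver-intestine cadherin, has a short tail and is not known to bind catenins. EPCAM is an adhesion molecule of simple epithelia that is not a cadherin, and β-catenin is also a partner of TCF and LEF factors in the nucleus.

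The ends of the coding sequences of the 4 classical cadherins are shown because they encode the part of the tail that binds β-catenin, the site at which cadherins and catenins of this group meet. The last 150 coding bases of 1 transcript a gene, without the stop codon, were read 5′ to 3′ from GENCODE version 29 on GRCh38 and aligned with mafft, and capitals mark the 69 bases that were identical in all 4.
CDH1: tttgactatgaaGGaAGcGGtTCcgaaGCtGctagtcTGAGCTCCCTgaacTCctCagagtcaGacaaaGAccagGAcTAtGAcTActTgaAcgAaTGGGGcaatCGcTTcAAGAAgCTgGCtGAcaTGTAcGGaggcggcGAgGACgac
CDH3: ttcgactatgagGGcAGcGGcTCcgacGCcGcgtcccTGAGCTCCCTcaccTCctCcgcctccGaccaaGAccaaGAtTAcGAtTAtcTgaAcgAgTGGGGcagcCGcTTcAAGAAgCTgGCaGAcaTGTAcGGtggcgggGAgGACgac
CDH2: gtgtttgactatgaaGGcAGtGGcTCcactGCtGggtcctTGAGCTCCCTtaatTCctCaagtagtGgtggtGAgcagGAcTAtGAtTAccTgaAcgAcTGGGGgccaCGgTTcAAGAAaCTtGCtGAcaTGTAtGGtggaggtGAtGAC
CDH11: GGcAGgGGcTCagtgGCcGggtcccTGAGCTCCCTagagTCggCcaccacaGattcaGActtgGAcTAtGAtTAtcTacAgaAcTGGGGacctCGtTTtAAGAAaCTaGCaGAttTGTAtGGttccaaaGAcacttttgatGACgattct
The stretches lie in 1 exon each, at chr16:68833347-68833496 (plus strand) for CDH1, chr16:68698248-68698397 (plus strand) for CDH3, chr18:27952156-27952305 (minus strand) for CDH2 and chr16:64947606-64947755 (minus strand) for CDH11. CDH1 and CDH3 were the closest pair, with 80.7% of 150 aligned bases identical, and CDH1 and CDH11 the most distant, with 60.9% of 138 aligned bases. CDH2 shared 72.1% with CDH1, 71.4% with CDH3 and 68.1% with CDH11, and CDH3 shared 67.4% with CDH11. No run of 30 bases was shared by the transcripts of any pair among the 9 genes, so that reads of such a length would not be split between them.

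The 4 libraries held 8429142 to 10286552 counts. MET itself, the targeted gene, had 2794 and 3272 counts in the MET+ libraries against 861 and 965 in the MET-KO ones, 25.7% of the MET+ level, with a log2 fold change of -1.96 (standard error 0.09). QuantSeq reads come from the 3' end of the transcript, so these counts do not show whether the coding sequence was cut. Log2 expression correlated at 0.985 and 0.990 between libraries of a group and at 0.827 to 0.832 between groups. The groups differed in more than MET. On chromosome Y, 16 genes had more than 3 counts in both MET-KO libraries, 14 of them with 0 counts in both MET+ libraries. Chromosomes also differed in their median change, given below, or as a median within 5 Mb, for CDH1, CDH17, CTNNA1, CTNNB1 and EPCAM. Such differences between the lines and the loss of MET cannot be told apart in these libraries. Of 10 intestinal epithelial markers, 9 were tested. Beside 27.2% higher and 26.9% lower over all genes tested, MET-KO cells had more of 2 and less of 6 of these markers. Their summed level was 9121 to 9166 CPM in MET+ and 7050 to 8047 CPM in MET-KO cells, most of it from KRT8, KRT18 and KRT19, while CDX1 was at 0 in every library and CEACAM5, GPA33, LGALS4 and VIL1 had at most 3 counts in either MET-KO library. The 2 with more in MET-KO cells were CDX2 and KRT20, the latter with 0 counts in both MET+ and 27 and 28 in the MET-KO libraries. Summed markers of fibroblasts (1.64 to 2.18 against 3.63 to 4.33 CPM), endothelium (0.846 to 0.924 against 0.0921 to 0.0981 CPM) and leukocytes (6.16 to 9.75 against 0.882 to 1.11 CPM) were low in both groups, with COL1A2, DCN, KDR, CDH5, PTPRC and CD3E at 0 in every library. Some of these markers still differed: LYZ had 38 and 79 counts in MET+ and 3 and 1 in MET-KO cells, and COL3A1 had 4 and 5 against 24 and 26. The part of these markers in the results was not tested.

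Among the 9 genes, expression of CDH1, CDH17, CTNNA1 and EPCAM fell and that of CTNNB1 rose in MET-KO compared to MET+ cells, CDH3 and CTNND1 did not pass the test, and CDH2 and CDH11 were too low to be tested. Levels are given as counts and as CPM, the counts scaled to a common library total after TMM normalization. A fold change is MET-KO against MET+ on the log2 scale, and a gene was called at an adjusted p below 0.05 by the quasi-likelihood test of edgeR, Benjamini-Hochberg adjusted over all 13801 genes tested. Of the 9 genes 7 passed the filter on low counts, CDH17 only through the MET+ libraries, and 5 were called, 1 higher and 4 lower, or 4 of 6 with CDH17 left aside. Over all genes tested 54.1% were called, 27.2% higher and 26.9% lower, so that a call by itself did not set a gene apart. The median log2 fold change of the 7 was -0.37, whether CDH17 entered with its fitted value or at its bound, and that of all genes tested 0.01. Each value comes from a pool of cells, in which fewer cells of a type and less RNA per cell cannot be told apart.

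**Figure D1:**
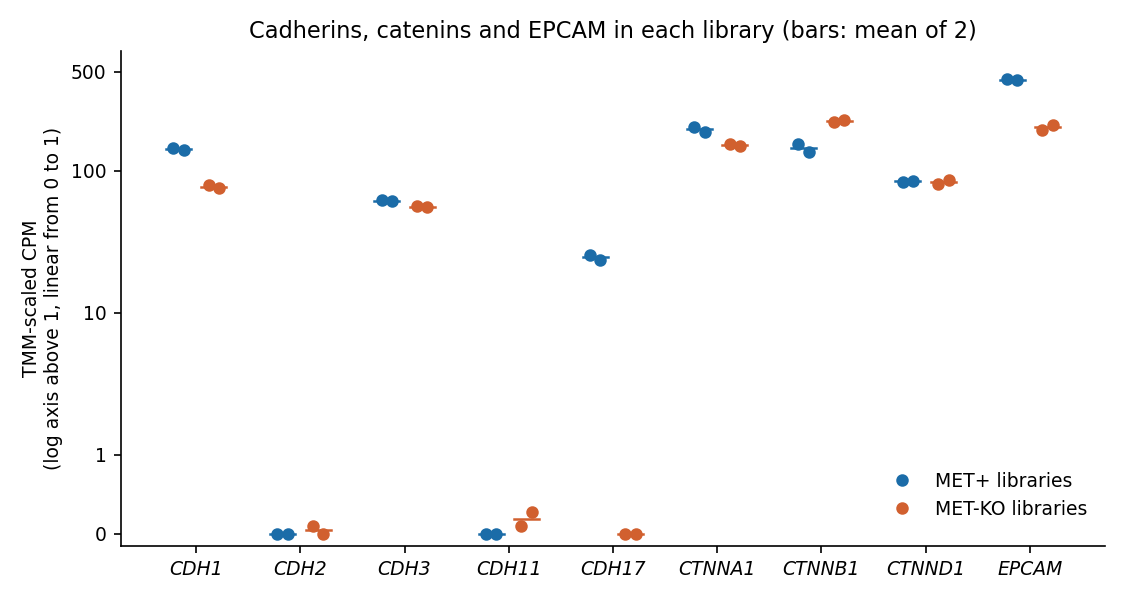
TMM-scaled CPM (vertical axis, logarithmic above 1 and linear from 0 to 1) of the 9 genes in each MET+ (blue) and MET-KO (orange) library, with a bar at the mean of the 2 libraries. CDH1 and EPCAM lie lower and CTNNB1 higher in both MET-KO libraries, CTNND1 overlaps between the groups, CDH17 lies at 0 in both MET-KO libraries, and CDH2 and CDH11 lie near 0 throughout.

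Among the 5 cadherins of this group, CDH1 was the most highly counted in both groups and lost a large part of its level in MET-KO cells. CDH1 (ENSG00000039068, chromosome 16, 68737225 to 68835548, plus strand) had 1194 and 1365 counts in the MET+ libraries against 807 and 822 in the MET-KO ones, that is 144 and 140 CPM against 79.1 and 75.7 CPM. Both MET-KO libraries lay below both MET+ libraries. The mean fell from 142 ± 2.95 to 77.4 ± 2.43 CPM (SD, n = 2 each), to 54.4% of that in MET+ cells, with a log2 fold change of -0.88 (95% interval -1.07 to -0.68, adjusted p = 2.11e-09, quasi-likelihood test of edgeR, Benjamini-Hochberg). The median was 0.04 over the tested genes of chromosome 16 and 0.16 over the 101 within 5 Mb of CDH1, of which 31 were called higher and 21 lower.

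CDH3 (ENSG00000062038, chromosome 16, 68636189 to 68722616, plus strand) lies 14608 bases upstream of CDH1 and kept most of its expression. Its counts were 517 and 593 in the MET+ libraries against 572 and 604 in the MET-KO ones, or 62.5 and 60.9 CPM against 56.1 and 55.6 CPM. The groups did not overlap, but the difference was small: the log2 fold change was -0.14 (95% interval -0.36 to 0.08) and the adjusted p was 0.271 (quasi-likelihood test of edgeR, Benjamini-Hochberg). The interval of CDH1 lay wholly below that of CDH3, and the ratio of CDH1 to CDH3 counts within a library, which needs no scaling, was 2.31 and 2.30 in MET+ and 1.41 and 1.36 in MET-KO cells. An exact two-sided permutation test of 2 against 2 libraries gave p = 0.333 for this ratio, the smallest p that the design allows, and this is the p of every ratio and share below whose groups did not overlap. An antisense gene, AC126773.2, overlaps CDH3 and had 11 and 14 counts in MET+ and 34 and 39 in MET-KO cells. The strand setting of the counting is not given in the sources used here.

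CDH17 was expressed in MET+ cells and was lost from the counts in MET-KO cells. CDH17 (ENSG00000079112, chromosome 8, 94127171 to 94217303, minus strand) had 212 and 229 counts in MET+ cells, 24.6 ± 1.49 CPM (SD, n = 2), and 0 counts in both MET-KO libraries. With an upper limit of 3 counts for each library at 0, its level was at least 86.1-fold lower in MET-KO cells. Its call as lower is given for completeness only, since the gene passed the filter on low counts through the MET+ libraries alone. These limits, and the intervals of shares below, cover counting error only. The median log2 fold change of the 44 tested genes within 5 Mb was 0.15, with 11 called higher and 8 lower, and CALB1 was the other gene among them with at least 10 counts in every MET+ library and at most 3 in each MET-KO library.

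The mesenchymal cadherins were at or under the limit of detection in both groups. CDH2 (ENSG00000170558, chromosome 18, 27950966 to 28177446, minus strand) was at 0 in each MET+ library, and had 1 and 0 counts in MET-KO cells. CDH11 (ENSG00000140937, chromosome 16, 64943753 to 65126112, minus strand) was likewise at 0 in MET+ cells, and had 1 and 3 counts in MET-KO cells. At this depth, where 3 counts are 0.292 to 0.356 CPM of the library totals, no difference in either was detectable. AC110015.1, a gene antisense to CDH2, was at 0 in MET+ cells and had 19 and 30 counts in MET-KO cells.

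To show which cadherins were expressed in each group, their make-up was also described as shares of the counts of the 5 cadherins in a library. This sum includes CDH17, so its fall to 0 counts by itself raises the shares of CDH1 and CDH3 in MET-KO cells. QuantSeq yields about 1 read a transcript, so no length scaling was used, but genes may differ in how well their 3' ends are captured, and the shares are compared between libraries only. CDH1 took 62.1% (95% Wilson interval 59.9% to 64.2%) and 62.4% (60.4% to 64.4%) of the cadherin counts in MET+ and 58.4% (55.8% to 61.0%) and 57.5% (54.9% to 60.1%) in MET-KO cells. CDH3 took 26.9% (25.0% to 28.9%) and 27.1% (25.3% to 29.02%) in MET+ and 41.4% (38.8% to 44.0%) and 42.3% (39.7% to 44.8%) in MET-KO cells. The share of CDH3 was thus higher in both MET-KO libraries, at a CPM that did not pass the test, while CDH17 went from 11.02% and 10.5% to 0 counts, which allows up to 0.217% and 0.210%. CDH2 and CDH11 held at most 0.210% of the cadherin counts of any library. The summed level of the 4 classical cadherins was 207 and 201 CPM in MET+ and 135 and 132 CPM in MET-KO cells.

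**Figure D2:**
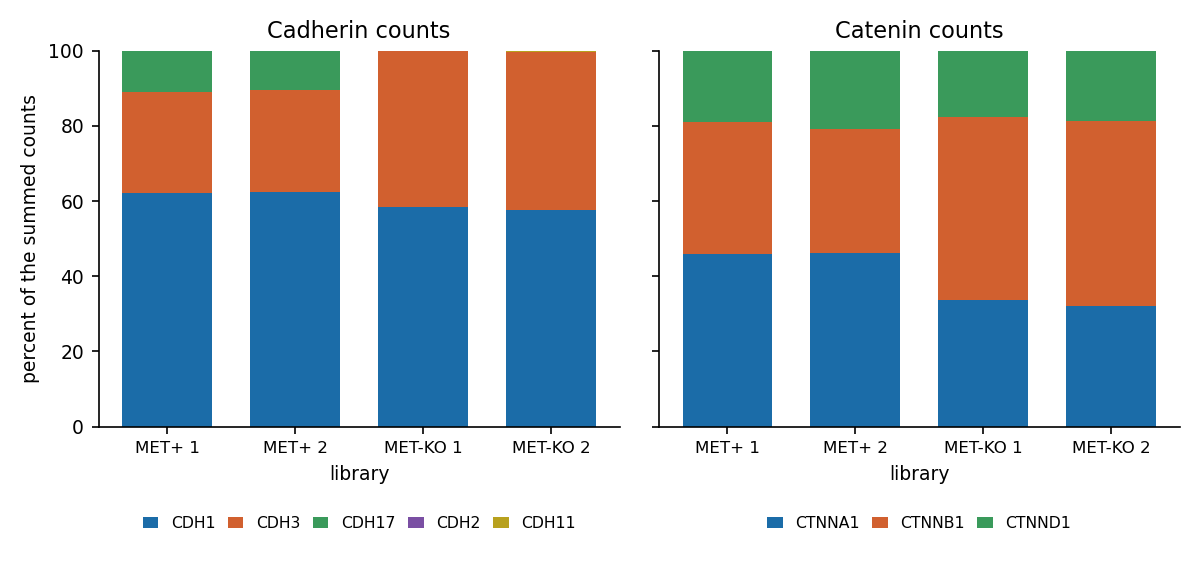
Percent of the summed counts (vertical axis) taken by each of the 5 cadherins (left) and each of the 3 catenins (right) in the 4 libraries. CDH17 fills 11.02% and 10.5% of the MET+ cadherin bars and none of the MET-KO bars, CDH3 takes 41.4% and 42.3% of the latter, and CTNNB1 takes 48.6% and 49.3% of the catenin counts in MET-KO cells.

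Of 43 other cadherins, protocadherins and relatives 28 had at most 3 counts in every library, 19 of them 0 counts throughout. Of the 13 tested, 3 were higher, 2 were lower and 8 were not called, with a median log2 fold change of -0.13. For comparison, 54.1% of all 13801 genes tested were called. FAT1, a giant cadherin that binds regulators of actin, rose by 1.08 on the log2 scale, from 87.4 ± 0.0143 to 184 ± 1.67 CPM (SD, n = 2 each). PCDH1, a protocadherin of epithelia, fell, with a log2 fold change of -0.83, from 49.1 ± 0.862 to 27.7 ± 3.17 CPM. It lies on chromosome 5, where the median over tested genes was -0.43. CDH12 (5 and 4 against 19 and 20 counts), CLSTN2 (0 and 0 against 28 and 32 counts) and CLSTN3 (48 and 64 against 26 and 36 counts) were the other called genes, and are named after their values were seen. Without MET-KO library 1 the list held 3 called genes, as with DESeq2. Summed over all 48 cadherins, the level was 479 and 474 CPM in MET+ and 467 and 461 CPM in MET-KO cells, within which FAT1 took 18.3% and 18.4% of the counts in the former and 39.8% and 39.7% in the latter, against 30.1% and 29.5% and then 16.96% and 16.4% for CDH1.

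The 3 catenins moved apart: CTNNB1 rose, CTNNA1 fell and CTNND1 did not pass the test. CTNNB1 (ENSG00000168036, chromosome 3, 41194741 to 41260096, plus strand) had 1276 and 1314 counts in the MET+ libraries against 2259 and 2488 in the MET-KO ones, or 154 and 135 CPM against 221 and 229 CPM. Each MET-KO value exceeded each MET+ value, and the mean rose 1.56-fold from 145 ± 13.7 to 225 ± 5.38 CPM (SD, n = 2 each). The log2 fold change was 0.64 (95% interval 0.45 to 0.83, adjusted p = 6.2e-07, quasi-likelihood test of edgeR, Benjamini-Hochberg). On chromosome 3 the median over tested genes was 0.14, and over the 63 within 5 Mb it was 0.06. ULK4, which overlaps CTNNB1 on the opposite strand, had at most 32 counts in any library.

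CTNNA1 (ENSG00000044115, chromosome 5, 138610967 to 138935034, plus strand) had 1678 and 1839 counts in the MET+ libraries against 1567 and 1622 in the MET-KO ones, or 203 and 189 CPM against 154 and 149 CPM. The groups did not overlap, and the mean fell from 196 ± 9.91 to 152 ± 3.03 CPM (SD, n = 2 each), to 77.4% of its value in MET+ cells. The log2 fold change was -0.37 (95% interval -0.56 to -0.18, adjusted p = 0.00101, quasi-likelihood test of edgeR, Benjamini-Hochberg). This decrease was of the size found along the whole chromosome: chromosome 5 had a median of -0.43 over 617 tested genes, CTNNA1 stood at percentile 54.0 among them, and of the 82 within 5 Mb 50 were called lower and 9 higher, with a median of -0.48. The antisense gene AC034243.1 had at most 21 counts in any library, and the pseudogene CTNNA1P1, which shares 285 runs of 30 bases with CTNNA1, had 0.

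CTNND1 (ENSG00000198561, chromosome 11, 57753243 to 57819546, plus strand) had 692 and 830 counts in the MET+ libraries against 821 and 937 in the MET-KO ones. In CPM these were 83.6 and 85.2 against 80.5 and 86.3, so the groups overlapped. The log2 fold change was -0.02, and its 95% interval from -0.22 to 0.19 left room for changes of that size in either direction (adjusted p = 0.901, quasi-likelihood test of edgeR, Benjamini-Hochberg).

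**Figure D3:**
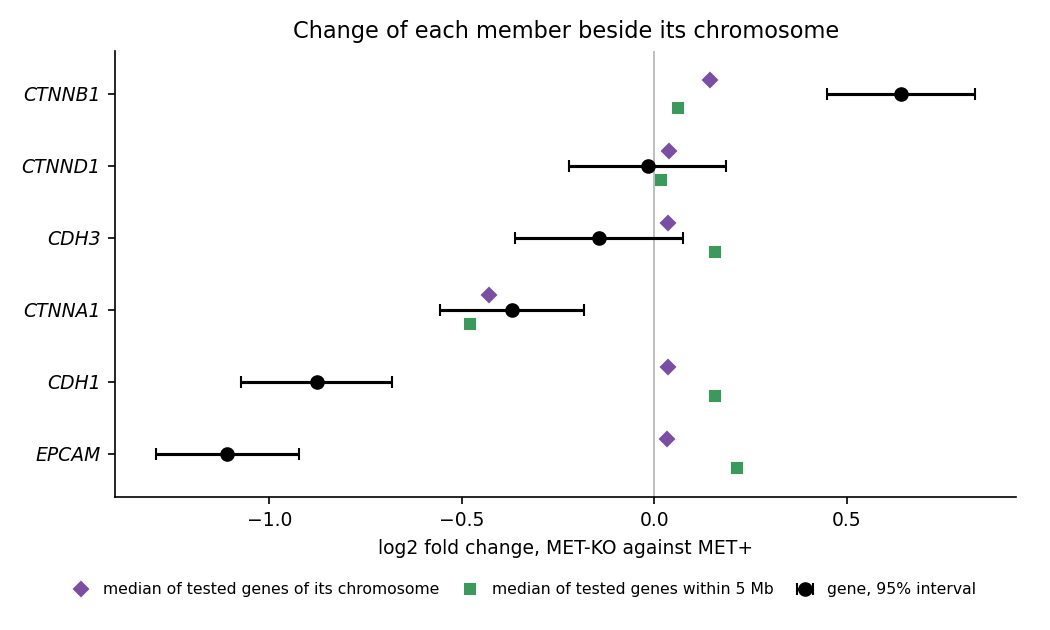
Log2 fold change of MET-KO against MET+ (horizontal axis) with its 95% interval for the 6 genes counted in both groups, beside the median of the tested genes of the same chromosome (diamonds) and of those within 5 Mb (squares). CTNNA1 at -0.37 lies among its neighbours, whose median is -0.48, while EPCAM, CDH1 and CTNNB1 lie away from theirs; CDH17 is left out because it had 0 counts in MET-KO cells.

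Set against each other within a library, catenin counts were higher relative to classical cadherin counts in MET-KO than in MET+ cells. The ratio of the summed counts of the 3 catenins to those of CDH1, CDH2, CDH3 and CDH11 was 2.13 and 2.03 in MET+ and 3.36 and 3.53 in MET-KO cells, a difference of 0.73 on the log2 scale (exact permutation p = 0.333). The ratio of CTNNB1 to CDH1 alone was 1.07 and 0.963 in MET+ and 2.80 and 3.03 in MET-KO cells. CTNNB1 to CTNNA1 was 0.760 and 0.715 against 1.44 and 1.53, a ratio that was likewise higher in both MET-KO libraries. The summed level of the 3 catenins differed less, at 441 and 409 CPM in MET+ and 456 and 465 CPM in MET-KO cells.

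Among 8 other catenins and relatives 5 were tested, and the median log2 fold change was 0.65. Here 4 were higher and none was lower, beside 54.1% called of all 13801 genes tested. CTNNAL1, a relative of α-catenin, rose by 1.84 on the log2 scale, from 27.5 ± 2.1 to 98.5 ± 1.81 CPM (SD, n = 2 each). PKP4 and ARVCF belong to the p120 family and rose by 1.34 and 0.65 on the log2 scale. JUP, plakoglobin, a close relative of β-catenin that also binds cadherin tails and sits in desmosomes, had 872 and 1183 counts in the MET+ libraries against 1820 and 1708 in the MET-KO ones, with a log2 fold change of 0.56, and is named after its values were seen. The ratio of JUP to CTNNB1 overlapped between the groups, at 0.683 and 0.900 against 0.806 and 0.687. CTNNBIP1, an inhibitor of β-catenin, was not called at 0.20, and CTNNA2, CTNNA3 and CTNND2 had 0 counts in every library.

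Of 16 nectins and scaffold proteins of the adherens junction 15 were tested, with a median of 0.33. Of these, 8 were higher, 4 lower and 3 not called, beside 54.1% called of all 13801 genes tested. LIMA1 (EPLIN), which joins α-catenin to actin, rose by 1.78 on the log2 scale, from 55.8 ± 0.152 to 192 ± 12.8 CPM (SD, n = 2 each). The nectins NECTIN1 and NECTIN3, adhesion receptors that do not need calcium, rose by 1.19 and 0.91 on the log2 scale. AFDN, afadin, which ties nectins to actin, fell, with a log2 fold change of -1.59, from 91.8 ± 4.66 to 30.4 ± 1.87 CPM, so that nectins and their anchor moved in opposite directions. CAMSAP3, which holds microtubule ends at the junction, and PTPRK, a receptor phosphatase that acts on junction proteins, fell by 1.43 and 1.38 on the log2 scale.

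EPCAM showed the largest change in CPM of the 9 genes. EPCAM (ENSG00000119888, chromosome 2, 47345158 to 47387601, plus strand) had 3638 and 4245 counts in the MET+ libraries against 1988 and 2291 in the MET-KO ones, or 440 and 436 CPM against 195 and 211 CPM. The groups did not overlap, and the mean fell from 438 ± 2.76 to 203 ± 11.3 CPM (SD, n = 2 each), to 46.4% of its value in MET+ cells. The log2 fold change was -1.11 (95% interval -1.29 to -0.92, adjusted p = 2.18e-12, quasi-likelihood test of edgeR, Benjamini-Hochberg). Its neighbour CALM2 was higher in MET-KO cells, by 1.33 on the log2 scale, and the 31 tested genes within 5 Mb had a median of 0.22. The ratio of EPCAM to CDH1 counts was 3.05 and 3.11 in MET+ and 2.46 and 2.79 in MET-KO cells.

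Of 9 partners of EPCAM 8 were tested, with a median log2 fold change of -0.26. Of these, 2 were higher, 4 lower and 2 not called, beside 54.1% called of all 13801 genes tested. CLDN7, a claudin that binds EPCAM directly, fell, with a log2 fold change of -1.28, from 324 ± 33.7 to 134 ± 5.18 CPM (SD, n = 2 each). The ratio of EPCAM to CLDN7 overlapped between the groups, at 1.47 and 1.25 in MET+ and 1.42 and 1.62 in MET-KO cells. The tetraspanins TSPAN8 and CD9, which form membrane platforms with EPCAM, fell from 976 ± 18.0 to 37.3 ± 2.6 CPM and from 673 ± 5.51 to 272 ± 41.9 CPM, log2 fold changes of -4.71 and -1.31. CD44, the hyaluronan receptor, rose by 1.49 on the log2 scale, from 83.9 ± 6.6 to 236 ± 5.39 CPM, and LEF1, a nuclear partner of β-catenin, rose by 1.93.

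**Figure D4:**
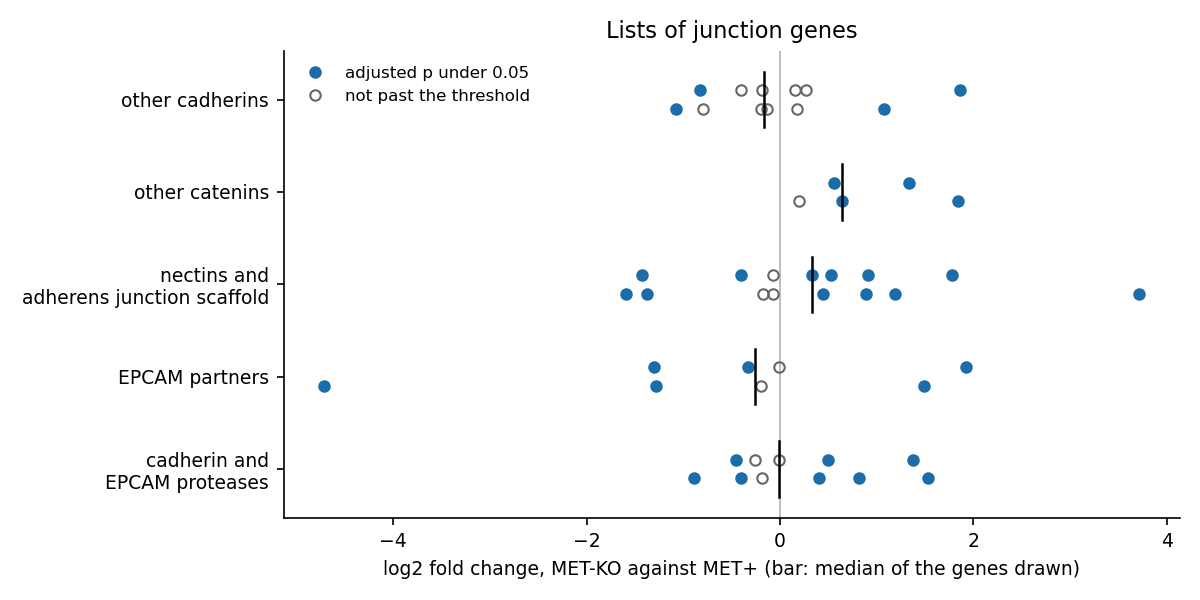
Log2 fold change of MET-KO against MET+ (horizontal axis) of the tested genes of 5 lists, filled where the adjusted p is below 0.05, with a bar at the median of the genes drawn. The called genes among the other catenins all lie above 0, and the other lists hold called genes on both sides; CLSTN2 is not drawn because it had 0 counts in both MET+ libraries.

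Proteases that shed or cut cadherins and EPCAM changed in both directions. Of 13 listed 11 were tested, with a median of -0.00488. Of these, 5 were higher, 3 lower and 3 not called, beside 54.1% called of all 13801 genes tested. ADAM10, the main sheddase of E-cadherin, rose by 1.37 on the log2 scale, from 59.8 ± 1.19 to 155 ± 2.19 CPM (SD, n = 2 each), and BACE1 rose by 1.54. PSEN2, a catalytic subunit of γ-secretase, was higher by 0.82. APH1A, a further subunit of γ-secretase, and BACE2 had log2 fold changes of -0.46 and -0.40.

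The complex that marks free β-catenin for breakdown was measured in 10 genes, all tested, with a median of -0.11. Of these, 2 were higher, 3 lower and 5 not called, beside 54.1% called of all 13801 genes tested. AXIN2, a scaffold of the complex and itself a target of β-catenin, rose by 1.998 on the log2 scale, from 22.5 ± 0.861 to 89.7 ± 3.68 CPM (SD, n = 2 each), and GSK3B, its kinase, by 0.31. BTRC, which recognises phosphorylated β-catenin, the kinase CSNK1A1 and the scaffold APC had log2 fold changes of -0.98, -0.79 and -0.46. CSNK1A1 and APC lie on chromosome 5, whose median was -0.43. Without MET-KO library 1 the list held 3 called genes, and with DESeq2 also 3.

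Targets of β-catenin and TCF did not move as one. Of 15 listed and tested 5 were higher, 6 lower and 4 not called, with a median of 0.05. For comparison, 54.1% of all 13801 genes tested were called. Besides AXIN2, TNFRSF19 rose by 2.93 on the log2 scale, from 2.73 ± 0.236 to 20.9 ± 1.36 CPM (SD, n = 2 each), and MYC rose by 0.34. RNF43, a ligase that removes Wnt receptors, had 1099 and 1249 counts in the MET+ libraries against 2 and 10 in the MET-KO ones. LGR5, a receptor of intestinal stem cells, fell, with a log2 fold change of -3.55, from 65.1 ± 4.67 to 5.55 ± 0.0894 CPM, and EPHB3, a receptor of the crypt, had a log2 fold change of -1.45.

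Of 20 transcription factors known to act on cadherin genes or on the epithelial program 15 were tested, with a median of -0.50. Of these, 5 were higher, 8 lower and 2 not called, beside 54.1% called of all 13801 genes tested. Among repressors of CDH1, ZEB1 had 11 and 16 counts in the MET+ libraries against 96 and 119 in the MET-KO ones, and TCF4 (E2-2) rose from 68.1 ± 3.85 to 259 ± 15.3 CPM (SD, n = 2 each), log2 fold changes of 2.76 and 1.92. SNAI1 had 104 and 91 counts against 90 and 73 and was not called (log2 fold change -0.49, adjusted p = 0.0702, quasi-likelihood test of edgeR, Benjamini-Hochberg), TCF3 was lower at -0.50, and SNAI2, TWIST1 and TWIST2 had 0 counts in every library and ZEB2 at most 1.

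Among activators and factors of the epithelial program, GRHL2, which maintains CDH1 expression in epithelia, had 145 and 154 counts in MET+ and 0 in both MET-KO libraries, at least 58.4-fold lower. OVOL1, a repressor of mesenchymal genes, had 117 and 114 counts against 0 and 4. HNF4A fell from 73.9 ± 12.1 to 6.88 ± 1.78 CPM and KLF5 from 574 ± 42.1 to 72.3 ± 7.91 CPM (SD, n = 2 each), log2 fold changes of -3.43 and -2.99. EHF and GRHL1 had log2 fold changes of -1.43 and -0.68, and OVOL2 was not called at -0.03. CDX2, an intestinal factor that acts on CDH17, rose by 1.04 on the log2 scale, from 65.0 ± 2.17 to 134 ± 15.3 CPM, while CDH17 itself was at 0 counts in MET-KO cells. KLF4 and ELF3 rose by 1.73 and 0.65 on the log2 scale, so the epithelial factors did not move in 1 direction. These factors were compared in the same 2 against 2 libraries as CDH1, CDH17 and EPCAM. The part of the factors in the changes of CDH1, CDH17 and EPCAM was not tested.

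**Figure D5:**
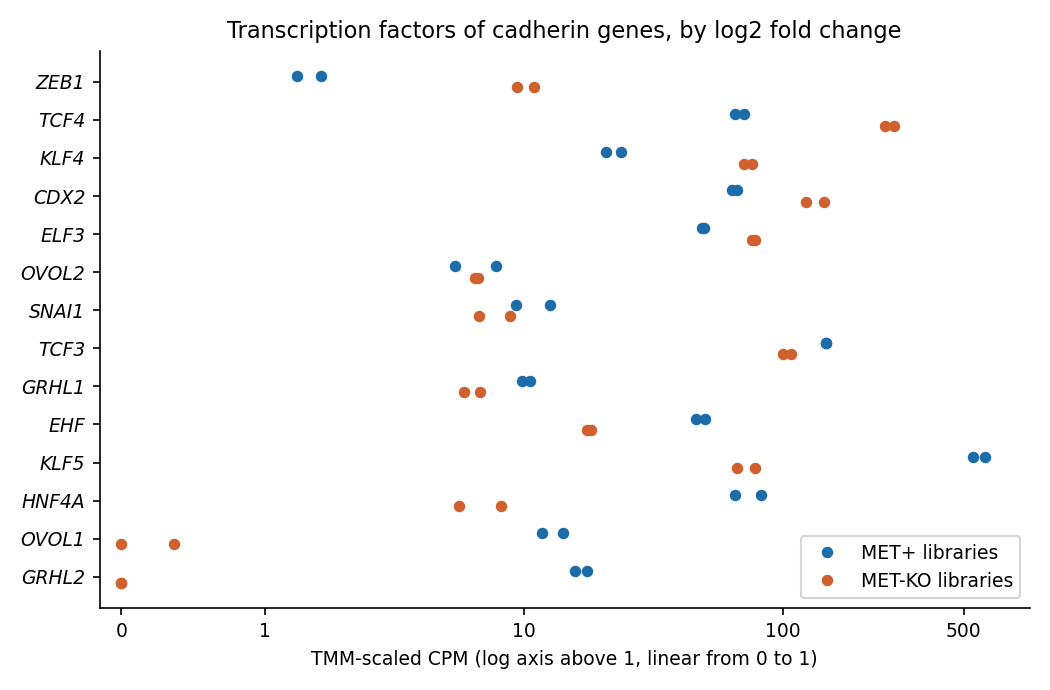
TMM-scaled CPM (horizontal axis, logarithmic above 1 and linear from 0 to 1) of 14 of the tested transcription factors in each MET+ (blue) and MET-KO (orange) library, ordered by log2 fold change. GRHL2 lies at 0 in both MET-KO libraries, and ZEB1, TCF4, KLF4, CDX2 and ELF3 lie higher in both MET-KO than in both MET+ libraries.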

How the data were processed

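RNA was extracted with QIAzol and sequenced as QuantSeq 3' mRNA libraries. As deposited by the authors, each of the 4 files holds raw counts per Ensembl gene (58825 rows, and 99 spike-in rows, all at 0). The submitters' processing notes name cutadapt 1.16, STAR 2.5.4a, featureCounts 1.6.2, DESeq2 1.18.1 and GRCh38, while the annotation release and strand setting are not given in the sources used here. Gene names, positions and coding ends were taken from GENCODE version 29, in which 58552 IDs were found; the ends were aligned with mafft 7.526.

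Counts were tested with edgeR 4.0.16 (filterByExpr by group, TMM, condition only, quasi-likelihood test, Benjamini-Hochberg threshold 0.05), which was checked on simulated data. The labels call the libraries biological replicates without naming separate cultures, so p-values measure the spread between these libraries. Shares and ratios were compared by exact permutation. The genes and all lists were chosen with earlier results of these data known. Named were the 9 genes, MET, any listed transcription factor, and from each list up to 3 called genes each way with the largest log2 fold change and a mean log2 CPM of at least 3. Alternatives were other scalings and filters, DESeq2 1.42.0, thinning (seed 1), a replicate block and leaving out each library. A few genes of the lists are counted but not reported by name here.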

Additional observations from a re-analysis of the deposited data

How the results depend on the processing

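The calls of CDH1, CTNNA1, CTNNB1 and EPCAM held in all 11 alternatives, CDH17 was called in the 10 in which it could be tested, and CDH3 and CTNND1 were called in none. Of 76 log2 fold changes under an alternative 73 kept their direction and side of the threshold, of 110 counts of called genes 105 stayed within 1.5 times the reported count, and of 25 differences in shares or ratios, which no test could call, 18 moved by less than 1 SD between replicates without a change of sign. The sign of CTNND1 turned to 0.0211 with at least 10 counts in every library (a filter that drops CDH17 and leaves 4 of the 9 genes called), 0.0853 with library totals only, which also moved the median of all genes to 0.11, and 0.0283 without MET-KO library 1 (range -0.0652 to 0.0283 over the libraries left out in turn). DESeq2 called 3 of the other cadherins in place of 5 and 3 genes of the destruction complex in place of 5, and at least 10 counts in every library left 3 of the other cadherins. Without MET-KO library 1 both lists held 3 called genes; over the 4 libraries left out in turn the counts ran from 3 to 6 and from 3 to 7. Where 1 library was left in a group, it was taken to vary like the other group's libraries. With all 48 cadherins as the denominator, the difference in the share of CDH1 was -13.2 percentage points in place of -4.27, that of CDH17 -5.15 in place of -10.7, and that of CDH3 turned from 14.8 to -0.90. Leaving out a MET+ library gave -11.0 to -10.5 percentage points for CDH17. The catenin ratio differed by 0.89 on the log2 scale with CDH17 among the cadherins and by 1.25 with CTNNB1 alone in place of the 3 catenins. With the replicate number as a block 7055 genes were called in place of 7467 and the same number, 5, of the 9; the labels give no shared batch for a number, and the deviations of same-numbered libraries from their group means correlated at -0.02. Except where given above, no cause of these differences was tested. At this depth differences in CDH2 and CDH11 were not detectable.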

Other observations

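Over 4 libraries, the genes whose centred log2 CPM lay nearest to that of CTNNB1, among 9555 genes searched, were LGALSL, a galectin-like gene (Euclidean distance 0.0321), LLGL1, a cell polarity gene (0.0331), and UBE2J1, a ubiquitin-conjugating enzyme (0.0354). Their log2 fold changes of MET-KO against MET+ were 0.65, 0.62 and 0.68, and they lie on chromosomes 2, 17 and 6. The genes nearest to CDH17 were S100A14, a calcium-binding protein gene (0.238), SPON1 (0.281) and A2ML1, a protease inhibitor (0.295). CDH17 had 0 counts in both MET-KO libraries, so its log2 values there were set by a small count added before the logarithm. Which genes lay nearest to CDH17 therefore depends on that added count. S100A14 had 13231 and 17062 counts in the MET+ libraries against 159 and 155 in the MET-KO ones, SPON1 548 and 593 against 4 and 5, and A2ML1 614 and 688 against 4 and 6. With 2 libraries a group, many genes share such a pattern, and a small distance is a description only.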
